A study of Rattus norvegicus with 9 samples.

Results

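The chemokine family was followed in the skin of ageing rats. Its members were taken as every gene symbol of the deposited count table that starts with CCL, CXCL, CCR or CXCR and a number, together with Cx3cl1, Cx3cr1, Xcl1 and Xcr1. This gave 54 of 23480 symbols, of which 34 were ligands and 20 were receptors. The samples were skin, taken from 9 rats of the outbred Wistar strain, all male. The young group held 5 rats of 6 months and the old group 4 rats of 24 months, with no treatment in the labels and 1 rat number per sample. Which part of the body the skin came from is not stated in the labels. Polyadenylated RNA was sequenced, and values are given as CPM (counts per 1000000, after TMM scaling of library sizes). Every fold change is the log2 of old divided by young, and its SE follows the ± sign, while ± after a mean is the SD.

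Chemokines are small secreted proteins that guide the movement of white blood cells. They are named for the spacing of their first cysteines (CC, CXC, CX3C or XC), and they act on receptors of the same name that span the membrane and signal through inhibitory G proteins. One receptor often binds several ligands and one ligand several receptors. Some ligands, such as Cxcl12 and Ccl21, are made steadily and place cells in tissues, while others, such as Ccl2 and Cxcl10, are induced in inflammation. In skin, keratinocytes, fibroblasts, vessel walls and resident immune cells all make ligands, and most receptors sit on immune cells.

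Total counts ran from 17.3 to 20.2 M (M, 1000000 counts) in the young libraries and from 20.1 to 34.1 M in the old. Old replicates 1 and 3 stood apart: every value in their columns was an even number, whereas 60.7 to 62.2% of values were even in the other 7 libraries. Their counts therefore look doubled, and their totals divided by 2 are 17.1 and 14.7 M. CPM values do not depend on such doubling, and with both columns halved the same 14 members passed the test as without halving. Keratinocyte markers of skin were present in every library, at a summed level of 22166 to 80032 CPM over 12 genes, and 12 skeletal muscle markers summed to 16760 to 111820 CPM. Counts given below are as deposited, the doubled ones included. In bulk tissue, fewer cells of a type and less RNA per cell cannot be told apart.

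Chemokine genes that passed the test were nearly all higher in old skin. Of the 54 members, 33 had enough counts to be tested, 13 rose and 1 fell (adjusted p under 0.05), and 19 did not pass. Among the largest fold changes were those of the receptors Cx3cr1, Ccr1 and Ccr2, which mark monocytes and macrophages among other cells, and of the ligand Ccl24. Over all 14933 genes tested, 9.62% rose and 4.41% fell. The median log2 fold change was 0.72 over the members tested and -0.045 over all genes. The samples of the 2 ages did not overlap in 14 members tested, against 16.5% of all genes tested. The filter on low counts bears on this count: 27 members passed it in each group taken alone, 3 (Ccr7, Cx3cr1 and Cxcr3) through the old samples alone, 1 (Ccl20) through the young alone and 2 (Ccl9 and Cxcl1) only through both groups together. Of the 21 members not tested, Ccl26 and Cxcr1 had no count in any library, which allows a level of up to 0.120 to 0.204 CPM per library (3 counts, with the doubled libraries at their halved depth; counting error only).

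**Figure D1:**
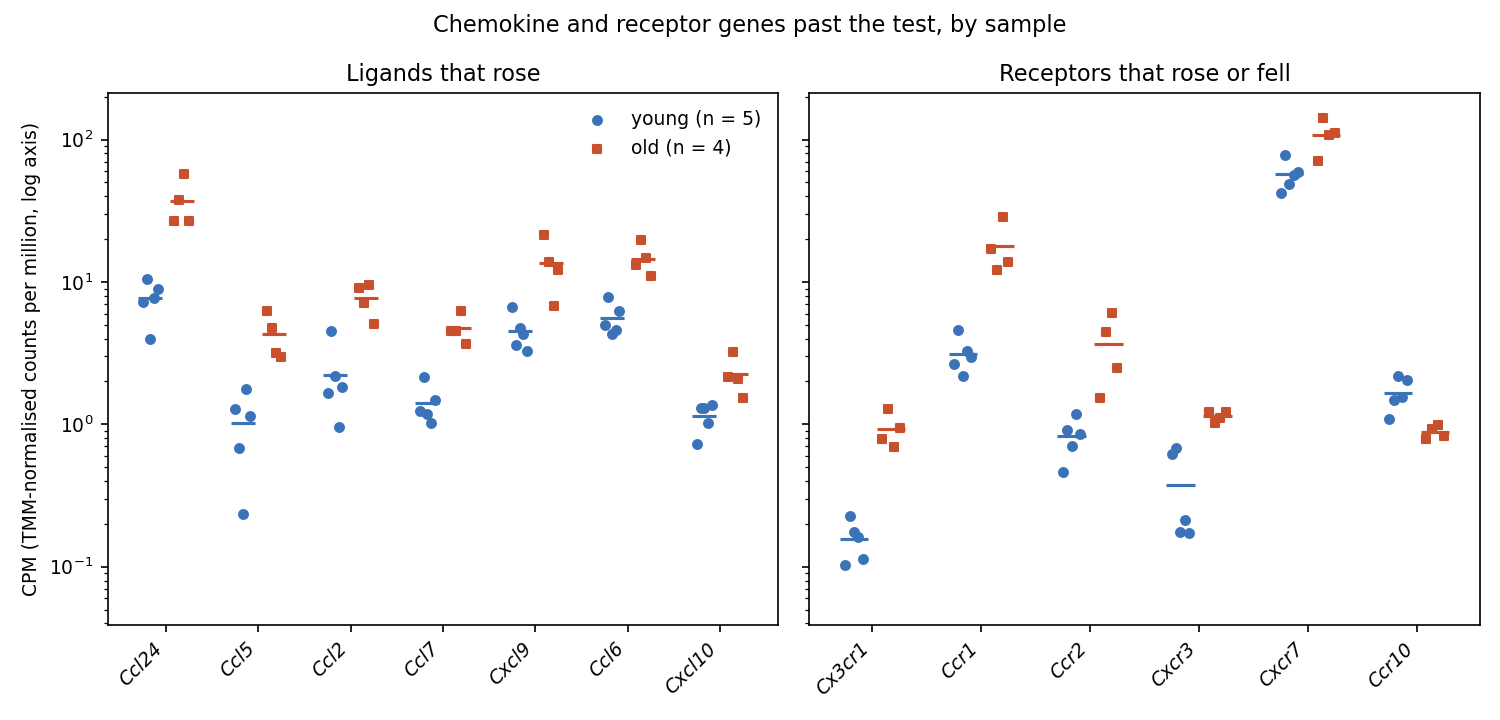
Level of 13 of the 14 members that passed the test, in CPM on a log axis, with 1 point per sample (circles young, squares old) and a line at each group mean; ligands on the left and receptors on the right, ordered by fold change. Old samples lie above all young samples for every gene shown that rose except Cxcr7, and below them for Ccr10.

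Ccl2, Ccl7 and Ccl6, ligands that attract monocytes, rose. Ccl2, the main ligand of Ccr2, was at 1.65, 4.50, 2.18, 0.964 and 1.83 CPM in young replicates 1 to 5 and 9.14, 7.14, 9.53 and 5.06 CPM in old replicates 1 to 4. Every old sample was above every young one, and young replicate 2 was the highest of its group. Its log2 fold change was 1.80 ± 0.40 (adjusted p = 0.0161, edgeR quasi-likelihood test). Ccl7, which binds Ccr1, Ccr2 and Ccr3, was at 1.24, 2.17, 1.18, 1.02 and 1.48 CPM in young replicates 1 to 5 and 4.54, 4.52, 6.27 and 3.67 CPM in old replicates 1 to 4. The old values did not overlap with the young; the change was 1.74 ± 0.26 (adjusted p = 0.00306). Ccl6, a rodent ligand known from mouse to act on Ccr1, was at 4.96, 7.87, 4.30, 4.61 and 6.28 CPM in young replicates 1 to 5 and 13.1, 19.6, 14.8 and 10.98 CPM in old replicates 1 to 4. Again the groups did not overlap, and the change was 1.38 ± 0.23 (adjusted p = 0.00466). Ccl6 and Ccl9, and likewise Ccl2 and Ccl12, are close relatives near each other in the genome, so that reads may be shared between them. The related rodent ligand Ccl9 was higher in old replicates 1, 3 and 4 (1.58, 2.09 and 1.98 CPM) but not in old replicate 2 (0.360 CPM), against 0.118 to 0.696 in young skin, and did not pass (1.78 ± 0.56, adjusted p = 0.0632; 0.0175 without old replicate 2, and 0.0175 to 0.925 over its alternatives). Ccl12, a mouse ligand of Ccr2, had 5 and 22 counts over the young and old libraries and was not tested. With a muscle marker score (the mean log2 CPM of the 12 muscle genes) as covariate Ccl2 did not pass (2.49, adjusted p = 0.0885). Of these 12 genes 1 rose and 5 fell with age. The score is thus built partly from genes that change with age, and fits with it cannot separate muscle content from age. Ccl2 also did not pass without old replicates 1 and 3 together (1.49, adjusted p = 0.0958). Its adjusted p was 0.000134 to 0.0958 over its alternatives.

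Ccl5 (RANTES), a ligand of Ccr1 and Ccr3 made by T and NK cells among others, was at 1.29, 0.684, 0.236, 1.77 and 1.14 CPM in young replicates 1 to 5 and 6.28, 4.78, 3.20 and 2.96 CPM in old replicates 1 to 4. The lowest old sample was above the highest young one, and young replicate 3 was the lowest of all. It rose by 2.06 ± 0.46 (adjusted p = 0.0169), but not with the muscle score as covariate (1.79, adjusted p = 0.190) or without old replicates 1 and 3 together (1.94, adjusted p = 0.0650), and its adjusted p was 0.000110 to 0.190 over its alternatives. The inflammatory ligands Ccl3 and Ccl4 (MIP-1 alpha and beta) were below the filter, with 14 and 36 and with 10 and 60 counts over the young and old libraries. Each old library held 5 to 12 counts of Ccl3, and 13 of the 14 young counts came from young replicate 3. Ccl4 had 0 to 4 counts per young library and 6 to 26 per old one, and its CPM did not overlap between the ages.

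The eosinophil-attracting ligand Ccl24 (eotaxin-2) had the largest fold change among the ligands tested. It was at 7.19, 10.5, 4.01, 7.66 and 8.90 CPM in young replicates 1 to 5 and 26.9, 37.9, 57.7 and 26.8 CPM in old replicates 1 to 4. All old samples were above all young ones, with old replicate 3 the highest and young replicate 3 the lowest. The change was 2.28 ± 0.31 (adjusted p = 0.00209) and lay between 2.03 and 2.47 when any 1 library was left out. Ccl11 (eotaxin-1) was at 0.827, 2.00, 1.47, 2.95 and 3.37 CPM in young replicates 1 to 5 and 3.54, 8.69, 3.78 and 3.91 CPM in old replicates 1 to 4. The groups did not overlap, but young replicates 4 and 5 came close to the old samples and old replicate 2 stood above the rest; it did not pass (1.22 ± 0.43, adjusted p = 0.0872). It passed with library totals alone as scaling (adjusted p = 0.0447) and with DESeq2 (0.0286), in a range of 0.0286 to 0.187 over all alternatives. Their receptor Ccr3, carried by eosinophils and mast cells, had 0 or 1 count per young library and 2 to 6 per old one. Counts of eosinophil markers were also low. Epx, an eosinophil granule peroxidase, was at 0.109 and 0.182 CPM in young and old skin. The 5 markers found in the table summed to 0.620 to 2.40 CPM in young and 3.22 to 6.89 in old skin. Of the 2 tested, Siglec5 rose (2.29 ± 0.65, adjusted p = 0.0449) and Il5ra did not pass (1.68 ± 0.55, adjusted p = 0.0722). Over all genes tested, 9.62% rose and 4.41% fell.

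Ligands induced by interferon gamma rose with their receptor. Cxcl9 was at 6.72, 3.59, 4.77, 4.34 and 3.25 CPM in young replicates 1 to 5 and 21.4, 13.8, 6.74 and 12.2 CPM in old replicates 1 to 4. Old replicate 3 lay just above young replicate 1, and the other old samples lay well above the young range. It rose by 1.58 ± 0.33 (adjusted p = 0.0124; 0.224 with the muscle score as covariate, and 5.88e-05 to 0.224 over its alternatives). Cxcl10 was at 0.724, 1.31, 1.30, 1.02 and 1.37 CPM in young replicates 1 to 5 and 2.17, 3.24, 2.09 and 1.54 CPM in old replicates 1 to 4. The groups were next to each other without overlap, and the change was 0.98 ± 0.28 (adjusted p = 0.0447). Cxcr3, their receptor on activated T and NK cells, was at 0.620, 0.684, 0.177, 0.214 and 0.171 CPM in young replicates 1 to 5 and 1.21, 1.03, 1.10 and 1.22 CPM in old replicates 1 to 4. Young replicates 1 and 2 were above the other young samples, and the old samples were close together. Cxcr3 rose by 1.60 ± 0.42 (adjusted p = 0.0342), but it entered the test only because its old samples passed the filter on low counts. The third ligand, Cxcl11, had 12 and 40 counts over the young and old libraries and was not tested. Cxcl10 did not pass in 13 of 21 alternative fits (adjusted p of 0.0158 to 0.109 over its alternatives), including all fits that left out 1 library other than old replicate 4. Cxcr3 did not pass in 9 of 20 (0.00537 to 0.261 over its alternatives), including those that left out 1 of young replicates 3, 4 and 5 or of old replicates 1, 3 and 4. Ifng, which encodes interferon gamma itself, had no count in 6 of 9 libraries.

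Promoter windows were found in a RefSeq table (rat build GRCr8) for 41 of the 54 members and for 10 of the 14 that passed the test; Ccl2, Ccl5 and Ccr10 have none there. Each window runs from 250 bases before the gene's start to 50 from it on. Windows of 4 ligands that rose are printed, taken from the monocyte, eosinophil and interferon groups described above. That of Ccl6, which also rose, is not printed. Capitals mark matches, on either strand, to a TATA box (TATAAA), an AP-1 site (TGANTCA), an interferon-gamma activated site bound by STAT factors (TTCNNNGAA), an interferon-stimulated response element (GAAA, any 2 bases, GAAA) and the kappaB motif bound by NF-kappaB, spelled out only by name. The windows are Ccl7 at chr10:67513845-67514144, plus strand, Ccl24 at chr12:26737173-26737472, plus strand, Cxcl9 at chr14:16006916-16007215, plus strand and Cxcl10 at chr14:15988816-15989115, plus strand, each printed 5′ to 3′ along its gene.
Ccl7: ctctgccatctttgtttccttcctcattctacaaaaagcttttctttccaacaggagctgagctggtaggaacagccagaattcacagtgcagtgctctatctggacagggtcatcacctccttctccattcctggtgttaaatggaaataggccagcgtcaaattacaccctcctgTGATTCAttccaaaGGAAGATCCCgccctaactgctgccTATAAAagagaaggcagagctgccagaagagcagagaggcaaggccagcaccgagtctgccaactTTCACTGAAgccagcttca
Ccl24: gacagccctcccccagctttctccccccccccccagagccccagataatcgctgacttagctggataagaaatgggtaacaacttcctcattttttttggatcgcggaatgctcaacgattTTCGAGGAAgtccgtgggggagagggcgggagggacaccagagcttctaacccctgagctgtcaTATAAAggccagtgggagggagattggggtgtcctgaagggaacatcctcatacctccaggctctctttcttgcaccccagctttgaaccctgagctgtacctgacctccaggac
Cxcl9: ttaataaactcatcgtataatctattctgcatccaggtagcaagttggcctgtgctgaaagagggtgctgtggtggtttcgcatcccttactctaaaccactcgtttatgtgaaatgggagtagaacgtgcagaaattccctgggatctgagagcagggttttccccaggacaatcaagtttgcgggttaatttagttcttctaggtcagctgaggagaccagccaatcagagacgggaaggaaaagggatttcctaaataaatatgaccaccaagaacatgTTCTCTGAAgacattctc
Cxcl10: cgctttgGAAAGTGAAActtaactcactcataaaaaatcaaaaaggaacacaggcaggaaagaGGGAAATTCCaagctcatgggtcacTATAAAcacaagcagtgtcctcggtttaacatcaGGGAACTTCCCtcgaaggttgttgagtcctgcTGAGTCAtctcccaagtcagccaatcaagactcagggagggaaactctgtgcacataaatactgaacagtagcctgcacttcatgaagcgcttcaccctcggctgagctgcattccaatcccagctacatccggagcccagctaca

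In the Ccl7 window the kappaB match lay at positions -59 to -50, the AP-1 match at -73 to -67, the TATA match at -34 to -29 and a STAT-type match at 31 to 39, counted with the gene's first base as 0. The Cxcl10 window held the response element at -243 to -234, kappaB matches from -187 and from -128 (the latter overlapping a match on the other strand from -127), a TATA match from -162 and an AP-1 match from -96. The Ccl24 window held a TATA match at -65 to -60 and a STAT-type match at -129 to -121. The Cxcl9 window held only a STAT-type match, at 32 to 40. The Ccl6 window, not printed, held only a TATA match, at -32 to -27. Among the 10 windows of members that passed the test, 5 held a TATA match, 2 an AP-1 match, 3 a STAT-type match, 1 the response element and 2 kappaB. Over all 41 member windows these counts were 12 (29.3%), 7 (17.1%), 6 (14.6%), 2 (4.88%) and 9 (21.95%), and over 27457 rat promoter windows of this length the shares were 14.3%, 7.33%, 8.68%, 3.77% and 7.60%. These are matches of letters, and no binding was measured.

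Receptors of monocytes and macrophages had some of the largest rises in the family. Ccr1, the shared receptor of Ccl3, Ccl5, Ccl7 and, in mouse, Ccl6 and Ccl9, was at 2.64, 4.62, 2.18, 3.27 and 2.97 CPM in young replicates 1 to 5 and 17.2, 12.1, 28.7 and 13.7 CPM in old replicates 1 to 4. The lowest old sample was well above the highest young one, and old replicate 3 was the highest; the change was 2.52 ± 0.30 (adjusted p = 0.00154). Ccr2, which draws monocytes from blood towards Ccl2 and Ccl7, was at 0.465, 0.912, 0.707, 1.18 and 0.856 CPM in young replicates 1 to 5 and 1.53, 4.47, 6.10 and 2.49 CPM in old replicates 1 to 4. Its old samples were spread widely, and the lowest, replicate 1, was close to the highest young value; it rose by 2.14 ± 0.42 (adjusted p = 0.00980). With the muscle score as covariate Ccr1 (adjusted p = 0.0598) and Ccr2 (0.122) did not pass, at log2 fold changes of 2.24 and 2.15; the adjusted p of Ccr1 was 3.13e-13 to 0.0598 over its alternatives and that of Ccr2 5.9e-05 to 0.122 over its alternatives. Ccr1 and Ccr1l1 are close relatives near each other in the genome, so that reads may be shared between them; Ccr1l1 itself had 2 and 10 counts over the young and old libraries.

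Cx3cr1, the fractalkine receptor of monocytes, tissue macrophages and some lymphocytes, rose by 2.52 ± 0.33 (adjusted p = 0.00194) from a low level. It entered the test only because its old samples passed the filter on low counts. It was at 0.103, 0.228, 0.177, 0.161 and 0.114 CPM in young replicates 1 to 5 and 0.792, 1.28, 0.697 and 0.948 CPM in old replicates 1 to 4, and the young libraries held 2 to 4 counts each and the old 24 to 30 as deposited. Its ligand Cx3cl1, a membrane-bound chemokine of endothelium and epithelium, was at 14.8 ± 1.72 CPM in young and 17.6 ± 3.01 in old skin and did not pass (0.25 ± 0.15, adjusted p = 0.285). The groups overlapped, since old replicates 1 and 4 lay within the young range of 12.5 to 17.2 CPM.

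**Figure D2:**
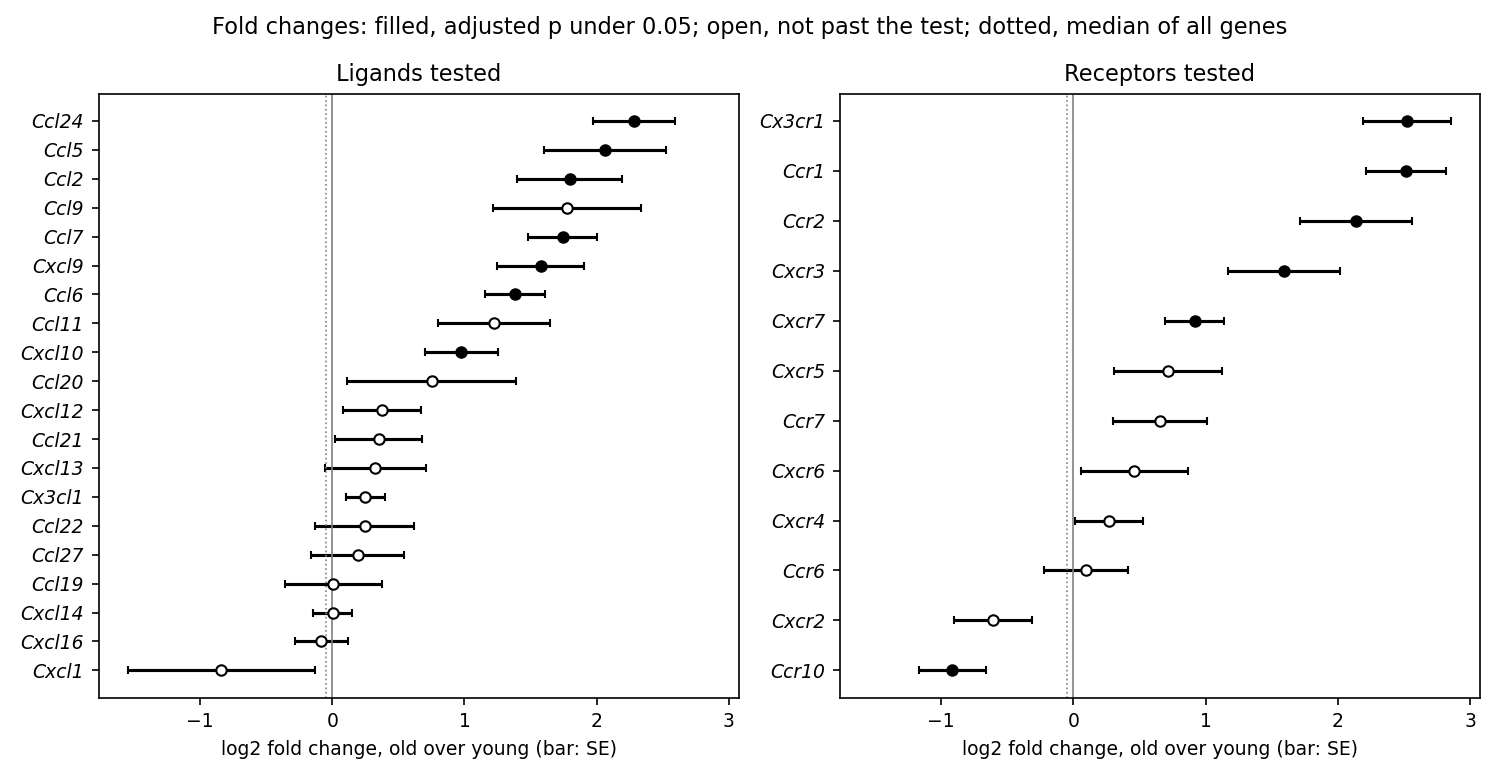
Log2 fold change, old over young, of the 20 ligands and of 12 of the 13 receptors tested, with the SE as a bar; filled circles passed the test (adjusted p under 0.05), open circles did not, and the dotted line marks the median of all genes tested, -0.045. Among the largest values are those of Cx3cr1, Ccr1 and Ccl24, and the only filled circle below 0 is Ccr10.

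Cxcr7, now named Ackr3, is an atypical receptor that takes up Cxcl12 without signalling through G proteins, and it rose while the ligand and the signalling receptor Cxcr4 did not pass. Cxcr7 was at 42.3, 77.9, 48.5, 56.8 and 59.6 CPM in young replicates 1 to 5 and 70.3, 143, 108 and 111 CPM in old replicates 1 to 4. Old replicate 1 lay within the young range and the other old samples above it. Its change was 0.92 ± 0.22 (adjusted p = 0.0236), and it did not pass without young replicate 3 (adjusted p = 0.0613; 0.00178 to 0.0613 over its alternatives). Cxcl12, a stromal ligand that holds and guides many cell types, was at 174, 156, 152, 179 and 229.8 CPM in young replicates 1 to 5 and 327, 315, 119 and 162 CPM in old replicates 1 to 4. Old replicates 1 and 2 were above every young sample, and old replicates 3 and 4 within or below the young range (0.37 ± 0.29, adjusted p = 0.430). Cxcr4 showed the same split, with 12.7 and 10.6 CPM in old replicates 1 and 2, 6.10 and 5.96 in old replicates 3 and 4, and 5.93 to 8.73 in young skin (0.27 ± 0.26, adjusted p = 0.510).

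Ccr10, the receptor by which skin-homing T cells follow Ccl27 and Ccl28, was the member that fell. It was at 1.09, 1.48, 2.18, 1.55 and 2.05 CPM in young replicates 1 to 5 and 0.792, 0.925, 0.988 and 0.830 CPM in old replicates 1 to 4. All old samples were below all young ones, although young replicate 1 came close; the change was -0.91 ± 0.25 (adjusted p = 0.0392). This call was lost in 15 of 21 alternatives, including every fit without 1 library except that without young replicate 1 (adjusted p up to 0.134 in those, and 0.0181 to 0.407 over its alternatives). Of its ligands, Ccl27, a keratinocyte chemokine, was at 0.756 ± 0.400 CPM in young and 0.859 ± 0.0731 in old skin (0.19 ± 0.35, adjusted p = 0.747), and Ccl28 had 23 and 54 counts over the young and old libraries, 36 of the old ones in replicate 3.

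Of the ligands that attract neutrophils, 1 was tested, and counts of Cxcl2 and Cxcl3 came largely from 1 young library. Cxcl1, a ligand of Cxcr2, was at 0.0517 to 1.47 CPM in young and 0.119 to 0.687 in old skin and did not pass (-0.84 ± 0.71, adjusted p = 0.460). Cxcl2 had 146 counts in young replicate 3 and 0 to 2 in each other library. Cxcl3 had 35 counts in young replicate 3, 4 in old replicate 3, 1 in old replicate 4 and none elsewhere. Both were below the filter, which asks for enough counts in at least 4 libraries. Cxcl5 (listed as Cxcl6 in RefSeq) had 2 and 4 counts over the young and old libraries. Their receptor Cxcr2 was at 3.54 ± 1.17 CPM in young and 2.31 ± 0.544 in old skin, with overlapping groups (-0.61 ± 0.30, adjusted p = 0.210). Of 7 neutrophil markers tested 5 rose and 0 fell, beside 9.62% and 4.41% of all genes tested. Those that rose were Mpo (3.77 ± 0.81), Csf3r (1.30 ± 0.29), Ncf4 (1.48 ± 0.24), Retnlg (1.92 ± 0.50) and Lcn2 (1.99 ± 0.57). S100a8 was lower in old skin without passing (64.5 to 21.5 CPM, -1.58 ± 0.53, adjusted p = 0.0788), and S100a9 did not pass (0.66 ± 0.56). The summed neutrophil markers overlapped, at 66.9 to 101 CPM in young and 75.0 to 145 CPM in old skin. S100a8 made up the largest part of the young sums, so the overlap rests largely on that gene.

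The lymphoid and epithelial ligands Ccl19, Ccl21, Cxcl13, Cxcl14 and Cxcl16 did not pass, nor did Ccr7, Cxcr5 and Cxcr6. Ccl19 and Ccl21, the Ccr7 ligands that draw dendritic cells and T cells into lymph vessels and nodes, had changes of 0.0086 ± 0.37 (adjusted p = 0.991) and 0.35 ± 0.33 (0.509), and Ccr7 one of 0.66 ± 0.35 (0.250). Ccl21 was at 25.2 to 65.2 CPM in young and 31.7 to 77.6 in old skin, so that the ranges overlapped widely. Cxcl13, a B cell ligand, and its receptor Cxcr5 stood at 0.33 ± 0.38 and 0.72 ± 0.41 (adjusted p = 0.601 and 0.272). Cxcl14, an epithelial chemokine, was at 97.5 ± 13.4 CPM in young and 97.8 ± 16.5 in old skin (0.0042 ± 0.15, adjusted p = 0.988). Cxcl16, which also acts as a scavenger receptor, and its receptor Cxcr6 had changes of -0.082 ± 0.20 and 0.46 ± 0.41 (adjusted p = 0.810 and 0.479). For Ccl22, a macrophage and dendritic cell ligand of Ccr4, the change was 0.25 ± 0.37 (adjusted p = 0.692), and old replicate 3 held the highest level, 25.3 CPM.

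Ccl20, which draws Ccr6-bearing Langerhans cells and T cells, ranged widely among old animals. It was at 1.24, 1.54, 2.18, 2.14 and 1.03 CPM in young replicates 1 to 5 and 7.13, 1.80, 1.45 and 0.474 CPM in old replicates 1 to 4. Old replicate 1 was above all others, and old replicate 4 was below all others; the log2 fold change was 0.75 ± 0.64 (adjusted p = 0.465), -0.34 without old replicate 1. Ccr6 was at 1.24 to 2.91 CPM in young and 1.54 to 3.66 in old skin (0.095 ± 0.32, adjusted p = 0.864). The remaining members were below the filter. Over the young and old libraries, Ccl17, the other Ccr4 ligand, had 9 and 10 counts and Ccr4 15 and 22. Ccl1 had 40 and 60 counts and its receptor Ccr8, found on T cells of skin, 18 and 24. The gut-homing ligand Ccl25 had 1 and 0 and its receptor Ccr9 1 and 4. Xcl1 of T and NK cells had 5 and 22 and its dendritic cell receptor Xcr1 33 and 70, and the mucosal ligand Cxcl17 had 11 and 30.

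Set side by side, 7 of 20 ligands tested rose and 0 fell, and 6 of 13 receptors rose and 1 fell, with median log2 fold changes of 0.56 and 0.72. For all genes tested, 9.62% rose and 4.41% fell, with a median of -0.045. No test was made between the classes. Without young replicate 3 the count of receptors was 4, all higher, and the count of ligands 6. By structural class, 5 of 12 CC ligands, 3 of 6 CC receptors, 2 of 7 CXC ligands and 2 of 6 CXC receptors rose. Known partners were paired from textbook knowledge, partly of human and mouse, and 19 pairs had both sides tested. Both sides rose in 8 pairs, the receptor alone in 3 (Ccr1 with Ccl9, Cxcr7 with Cxcl12 and Cx3cr1 with Cx3cl1) and neither in 8, among them Ccl27 with Ccr10; a ligand alone rose in 0. The pairs of Ccr3 with Ccl5, Ccl7 and Ccl24, ligands that rose, are not among the 19, since Ccr3 was below the filter. The 0 therefore does not cover them. Pairs share members, with Ccr1 in 4 of them, and so are not independent.

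**Figure D3:**
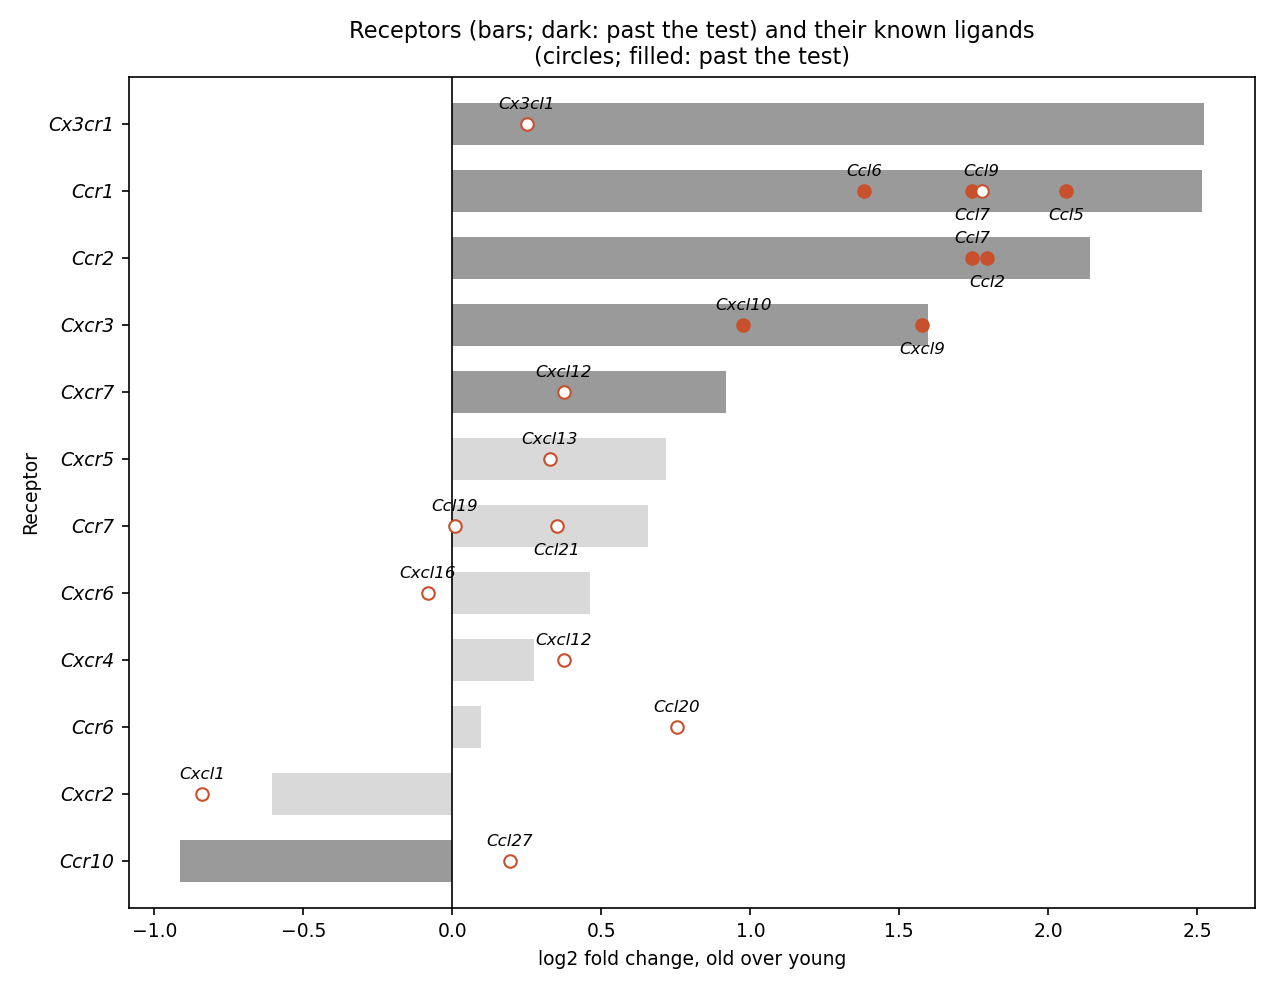
Log2 fold change, old over young, of receptors tested (bars, dark where it passed the test) and of its known ligands tested (circles, filled where they passed). Among the receptors shown, the filled ligands stand on Ccr1, Ccr2 and Cxcr3, those with changes of 1.60 and more apart from Cx3cr1.

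Several members that rose lie next to each other in the genome. In the RefSeq order of protein-coding genes, used here for neighbourhood only, Ccl2 and Ccl7 are the first of 5 neighbours on chromosome 10 followed by Ccl11, Ccl12 and Ccl1, and of the 3 tested there 2 rose. A second group of 5 on that chromosome holds Ccl5, Ccl9, Ccl6, Ccl3 and Ccl4, in which 2 of 3 tested rose. On chromosome 14, Cxcl9 and Cxcl10 lie beside Cxcl11, while 0 rose in the group of Cxcl1, Cxcl2, Cxcl3 and Cxcl5, where 1 was tested. On chromosome 8, Ccr1 and Ccr2 lie in 1 group with Ccr9, Cxcr6, Xcr1, Ccr3 and Ccr1l1, and Cx3cr1 lies beside Ccr8. In the groups of Ccl27, Ccl19 and Ccl21 (chromosome 5) and of Ccl17, Cx3cl1 and Ccl22 (chromosome 19), 0 of 3 and 0 of 2 tested passed.

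Markers of immune cells and of other tissues also differed between the ages. Among all genes tested, 9.62% rose and 4.41% fell. Of 12 adipocyte markers 10 rose (median log2 fold change 3.01), with sums of 708 to 1394 CPM in young and 3843 to 8236 CPM in old skin. Of 12 fibroblast markers 8 rose (median 1.03), and of 12 skeletal muscle markers 1 rose and 5 fell (median -0.74). All 18 macrophage markers tested rose, of 20 listed, and their summed level was 212 to 411 CPM in young and 791 to 1616 CPM in old skin. Of 17 T and NK cell markers tested, 12 rose and 0 fell, with sums of 29.9 to 50.9 and 110 to 191 CPM; Cd4, which rat macrophages also carry, accounted for 17.3 ± 5.74 and 97.7 ± 32.0 CPM of it. Mast cell markers rose in 7 of 10 and dendritic and MHC class II genes in 7 of 13, while of 12 keratinocyte markers 3 fell. Defining B cell markers were near 0, with Ms4a1 at 0 in 7 of 9 libraries. Each member that passed was also expressed as a percentage of the summed macrophage markers of its own library, and the log2 of this ratio compared between the ages by a two-sided exact permutation test over 126 splits (smallest possible p = 0.00794), with 13 ratios adjusted together. Ccr10 was not tested in this way, since it fell and the sum rose, each without overlap, which fixes the ratio. Of the 13 ratios, 0 passed after adjustment and 6 had an unadjusted p under 0.05. With 126 splits, a lone ratio at the smallest possible p could not pass adjustment over 13. That 0 passed therefore says little. The 13 members were taken because they rose between these ages in these same samples, and the marker sum rose as well. Cx3cr1 and Cxcr3 had also entered the test of genes through the old samples alone. The permutation p values are thus no independent evidence about these members. Ccr1 was 0.987 to 1.12% in young and 1.10 to 2.17% in old skin, a difference of 0.59 (exact permutation p = 0.0159, adjusted p = 0.0516). For Cxcl10 and Cxcr7 the difference was -0.92 and -0.99, lower in all 4 old samples than in all 5 young ones (each exact permutation p = 0.00794, adjusted p = 0.0516). Both genes rose themselves, so their lower ratio means only that they rose less than the marker sum. Ccl2, Ccl5, Ccl7, Ccr2, Cxcl9 and Cxcr3 differed by -0.38 to 0.39 (adjusted p of 0.763 to 0.992). Ccl24 and Ccl6 had differences of 0.39 and -0.51 (each exact permutation p = 0.0476, adjusted p = 0.103). Cx3cr1 differed by 0.70 (exact permutation p = 0.103, adjusted p = 0.192). The part of these shifts in tissue markers in the changes of the chemokine family was not tested.

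**Figure D4:**
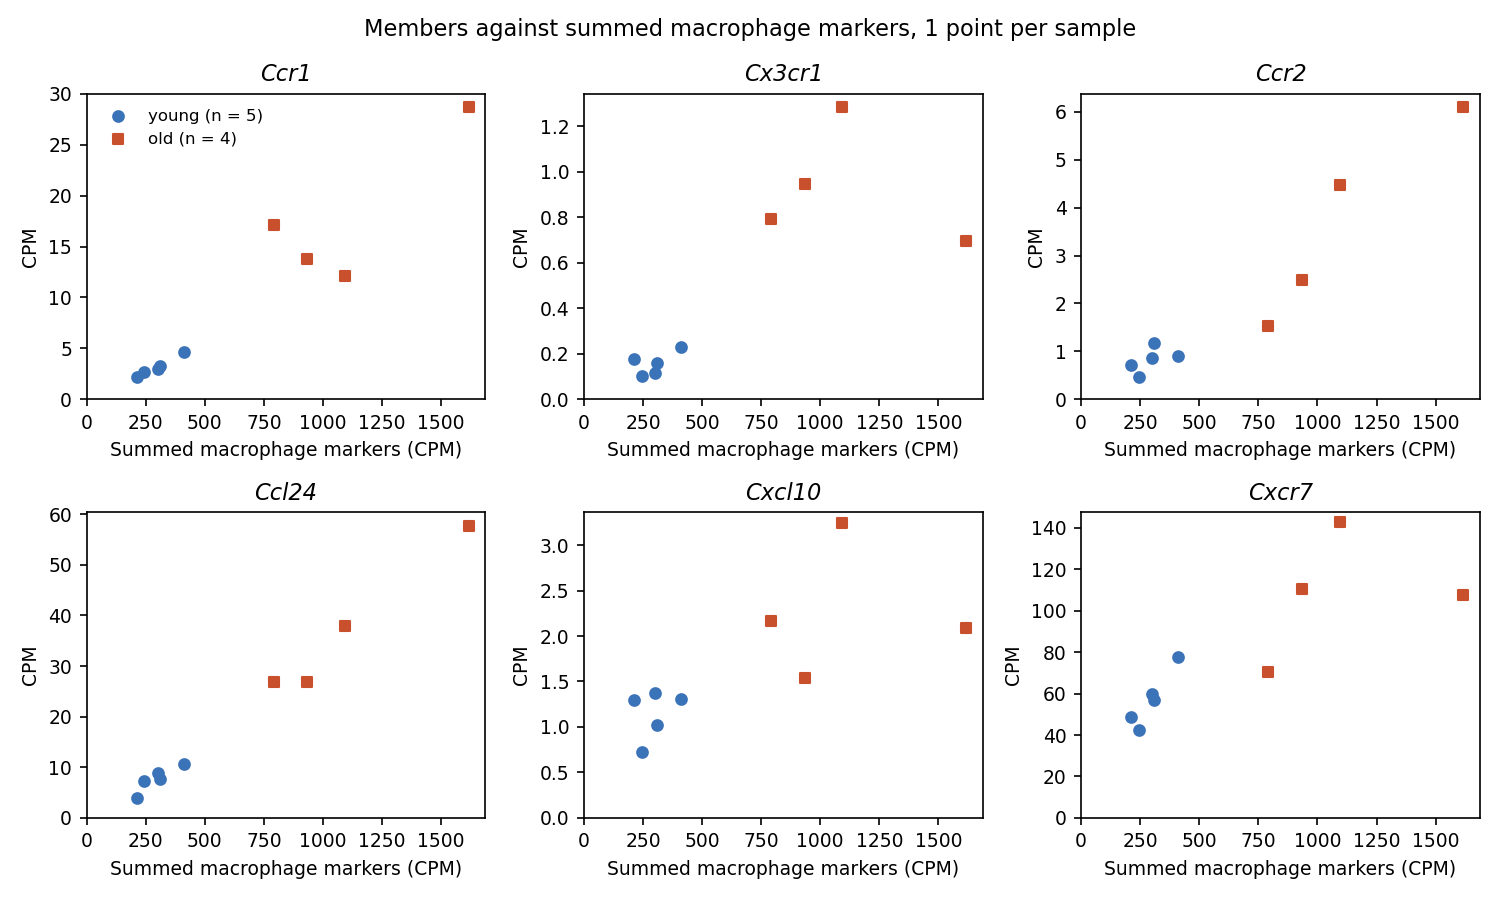
Level of 6 members in CPM against the summed level of macrophage markers in CPM, 1 point per sample (circles young, squares old), with both axes from 0. Ccr1, Ccr2 and Ccl24 reach their highest value in old replicate 3, where the markers sum to 1616 CPM, while Cx3cr1, Cxcl10 and Cxcr7 are highest in old replicate 2.

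Other genes of the pathway rose in part, and the counts below stand beside 9.62% risen and 4.41% fallen over all genes tested. Of 36 signalling genes tested, 17 rose and 0 fell (median log2 fold change 0.55), among them Rac2, a GTPase of blood cell movement (5.21 ± 0.707 to 15.9 ± 0.768 CPM), Dock2, which activates it in lymphocytes (1.72 ± 0.21), and Fgr, a Src-family kinase of myeloid cells (1.19 ± 0.14). Of 5 atypical and related receptors tested, 1 rose: Cmklr1, the chemerin receptor (1.20 ± 0.21), whose ligand gene Rarres2 rose as well (33.9 ± 8.53 to 86.8 ± 22.6 CPM). The decoy receptors Ackr2, Ackr4 and Darc (Ackr1) did not pass, at -0.62 ± 0.31, 0.33 ± 0.28 and 0.33 ± 0.22. Of 4 chemokine-like genes outside the naming rule that were tested, 2 rose, Rarres2 and Pf4, named after platelets (2.09 ± 0.35). Ppbp, on the same list, had no count in 8 of 9 libraries. Which cells carried the Pf4 RNA was not tested. Leukocyte adhesion genes rose in 5 of 15: the integrin chains Itgal (2.08 ± 0.20), Itgam (2.12 ± 0.29) and Itgb2 (1.62 ± 0.26), the selectin ligand Selplg (1.42 ± 0.24) and Icam2 (0.77 ± 0.21). The endothelial selectins Sele and Selp did not pass (0.41 ± 0.22 and 0.52 ± 0.27).

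Of 21 inducers of chemokines tested, 7 rose and 1 fell, beside 9.62% and 4.41% of all genes tested. The cytokines Csf1 (1.09 ± 0.15) and Il33 (1.13 ± 0.16), the inflammasome sensor Nlrp3 (1.40 ± 0.23) and the receptor Tlr2 (1.44 ± 0.26) rose, and Il18, a cytokine that keratinocytes store, fell (-2.13 ± 0.42). Tnf, Il1b and Il1a, the classical inducers, stood at 0.43 ± 0.41, -0.62 ± 0.40 and -0.22 ± 0.46 and did not pass, nor did the NF-kappaB subunits Nfkb1 (0.11 ± 0.10) and Rela (0.0018 ± 0.081). Of 10 genes that bind or trim chemokines, 3 rose: Sdc2, a heparan sulfate proteoglycan (1.26 ± 0.17), Mmp2, a protease that can cleave chemokines (1.04 ± 0.19), and Tnfaip6, a hyaluronan-binding protein that also binds chemokines (2.12 ± 0.32). Dpp4, which trims the N-terminus of several chemokines, did not pass (-0.33 ± 0.27). Apart from the levels of Rac2 and Rarres2, the values given for pathway genes are log2 fold changes with SE, from the same test over all genes.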

How the data were processed

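Read counts per gene symbol, not normalized, were deposited by the authors in 1 table with a column per sample. Reads were aligned with BWA, per the submitters' processing notes; neither version nor genome build nor counting rule is given there. Libraries were made with a kit that does not mark the strand (TruSeq RNA v2, per the labels' protocols), so reads of overlapping genes cannot be told apart. No library was a copy of another in its group (chi-square per degree of freedom of 30.6 or more, with the doubled columns halved). The counts were filtered with filterByExpr (minimum count 10, minimum total 15), scaled by TMM and tested with edgeR 4.0.16 in R 4.3.3 (glmQLFit and glmQLFTest, all 9 samples, no covariate), with Benjamini-Hochberg adjustment over 14933 genes at 0.05. The SE, an approximation, is the size of the fold change divided by the root of its F statistic. The procedure was tested on simulated data. Samples carry separate rat numbers and were taken as separate animals. The alternatives, run with DESeq2 1.42.0 and limma 3.58.1 beside edgeR, were other scalings, filters and tests, libraries thinned to the smallest total, a replicate block, a muscle score, a stricter threshold and leaving out each library. The halving of the 2 all-even columns, their joint removal and the ratios to macrophage markers were chosen after seeing the data. The members and the 19 lists (252 of 261 entries in the table) were chosen with earlier results of these data known. Named were all members, and of each pathway list its called genes if 6 or fewer, otherwise the 4 with the smallest adjusted p; other genes were named after their values were seen, and the values of 1 member and 1 pathway gene are not reported here. Of the members, 52 matched a current RefSeq symbol and 2 a synonym. Figures were drawn with matplotlib 3.10.9.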

Additional observations from a re-analysis of the deposited data

Results flagged for a closer look

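In old skin, Ccl11 stood at 8.69 CPM in replicate 2 and at 3.54 to 3.91 CPM in the other 3 old samples. The gap to the nearest sample was 0.928 of the group's range, beyond Dixon's 95% critical value for 4 samples. It was the only one of 66 sets of values (33 members in 2 groups) beyond that limit, where chance gives about 1 in 20.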

How the results depend on the processing

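Of the 14 members that passed, 5 (among them Ccl24, Ccl6, Ccl7 and Cx3cr1) kept the call in every one of the 21 alternative fits in which they were tested. In every fit without 1 library 10 kept it, and 0 changed sign. Cx3cr1 and Cxcr3 were not tested under the stricter filter, and they passed the main filter through the old samples alone. With the muscle score as covariate 6 members (3 ligands, 3 receptors), 42 list genes of 114 and 1078 genes of 2096 passed. That score holds genes that change with age, so calls lost under it cannot be assigned to muscle content. At adjusted p under 0.01, 7 members and 840 genes passed. Without old replicates 1 and 3 together, 9 members, among them 4 ligands, and 1623 genes of 2096 passed. The cause of these drops was not tested. DESeq2 called 3212 genes. Leaving out 1 library gave 1375 to 2359 genes (1375 without old replicate 4, 1395 without young replicate 3), 10 to 13 members, 6 to 7 ligands and 4 to 7 receptors (4 without young replicate 3), and 97 to 117 list genes. Library totals alone moved the median of all genes from -0.045 to 0.11, with 1956 genes higher and 312 lower against 1437 and 659; 15 members were then higher and 0 lower. With upper-quartile factors 1707 were higher and 481 lower. The replicate numbers do not pair the samples: deviations of same-numbered samples correlated at -0.47 to 0.67, and 1 of 4 young samples correlated best with its own number. With a replicate block 11 members passed (6 ligands and 5 receptors; Ccr10, Cxcl10 and Cxcr3 did not), with 94 list genes and 1806 genes. Among members, the sign turned in 8, none of which passed. Ccl19 was -0.094 after thinning, -0.10 with the block, -0.88 with the muscle score, -0.23 without both all-even libraries and -0.14 to 0.29 without 1 library. In the same fits Cxcl14 was -0.0085, -0.067, -0.18 and, without 1 library, -0.058 to 0.13; it was -0.0016 with no filter. Ccl20 was -0.17 with the muscle score and -0.50 without both all-even libraries, and Cxcr6 -0.63 with the muscle score. Ccr6 was -0.20 and Cxcl13 -0.13 without both all-even libraries, and Cxcl16 0.11 with library totals alone. Without 1 library Ccl20 ran from -0.34 to 1.14, Ccl22 from -0.14 to 0.54, Ccr6 from -0.17 to 0.25 and Cxcl16 from -0.24 to 0.053. At 17.3 to 34.1 M counts per library, members under about 0.50 CPM could not be tested.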

Other observations

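Young replicate 3 held most counts of several genes that neutrophils and activated keratinocytes are known to make. Cxcl2 was at 8.60 CPM there and at 0 to 0.107 in the other 8 libraries, and Cxcl3 at 2.06 against 0 to 0.116. Mmp9, a gelatinase of neutrophil granules and wounded epidermis, was at 13.9 CPM in that library and at 0.114 to 1.05 in the others. Other neutrophil genes did not stand out in it: Csf3r was at 0.589 CPM, while the young libraries spanned 0.513 to 1.12, and Mpo at 0.530, the lowest of all libraries. Il1b was at 29.2 CPM there, the highest of all libraries, with young replicate 2 at 23.9. These genes were chosen after their values were seen, and no test was made.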
